A study of Saccharomyces cerevisiae with 20 samples.

Results

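Yeast lacking SET1 and the wild-type strain were compared early in the first cell cycle after release from pheromone arrest, at 15, 30 and 45 min, with the time point as the pair. The comparison used 6 of the 20 libraries of the series, 3 from each strain. Of 6532 features counted, the 5042 with a mean of at least 10 reads over the 6 libraries were tested. The wild type (WT) is labelled W303a, a laboratory strain of Saccharomyces cerevisiae of mating type a, and the mutant is labelled delta_set1 and is written set1Δ here. Both strains were grown in rich medium at 30 °C, held in G1 with α-factor, the pheromone of the opposite mating type, and washed into fresh medium. All 6 libraries therefore come from cells that had been exposed to pheromone, and the controls carried the same arrest. The assay was PAT-seq, which reads the 3′ ends of polyadenylated RNA. Each strain was represented by 1 culture and each time by 1 library. The spread behind each test is therefore that of the strain difference over the 3 times, moderated by the other genes, and not that between cultures.

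Set1 is the enzyme of the COMPASS complex and places methyl groups on lysine 4 of histone H3, a mark of transcribed genes. In cells of mating type a, α-factor binds the receptor Ste2 and a kinase cascade that ends in Fus3 turns on the transcription factor Ste12, which binds the pheromone response element in promoters. Genes for mating projections, cell fusion and nuclear fusion are then switched on and the cycle stops in G1. The projection remodels the cell wall, and the cell wall integrity kinase Slt2 acts in that response. After the pheromone is gone, G1 cyclins start a wave of G1/S transcription, followed by histone genes, G2/M genes and, at the exit from mitosis, genes that daughter cells use to separate.

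The 6 libraries held 952283, 1453513 and 1604577 reads in WT and 1517463, 476565 and 1724549 reads in set1Δ at 15, 30 and 45 min. The set1Δ library of 30 min was the shallowest of the series. Reads with a poly(A) tail made up 77.1 to 91.7% of a WT library and 66.8 to 74.3% of a set1Δ library, so set1Δ had the lower share at all 3 times. SET1 itself (YHR119W) had 36.7, 58.3 and 59.4 counts scaled to equal library size (CPM) in WT and 5.84, 11.4 and 11.1 CPM in set1Δ. The strains did not overlap, and the log2 difference of set1Δ from WT was −2.46 ± 0.28 (SE, 3 pairs; edgeR quasi-likelihood, adjusted p = 1.81e-05). Markers of mating type α, of which 2 of 4 were abundant enough to test, summed to 13.1 to 23.3 CPM in WT and 25.7 to 49.6 CPM in set1Δ. The 7 markers of mating type a summed to 6564 to 13983 CPM in WT and 515 to 8479 CPM in set1Δ. At 0 min the same 7 markers had summed to 19678 CPM in WT and 21039 CPM in set1Δ.

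The strains also differed in the time at which cycle genes were abundant. The 6 G1/S markers CLN1, CLN2, CLB5, CLB6, RNR1 and PCL1 summed to 787, 1435 and 543 CPM in WT and to 2561, 802 and 209 CPM in set1Δ at 15, 30 and 45 min. The sum was thus highest at 30 min in WT and at 15 min in set1Δ. The G2/M markers summed to 76.8, 91.0 and 386 CPM in WT and to 67.7, 221 and 664 CPM in set1Δ. Libraries of equal time were thus not at an equal level of cycle markers. In bulk RNA, fewer cells in a stage and less RNA per cell cannot be told apart. How far this accounts for any gene below was not tested. Counts with WT libraries from 15 min later and from 15 min earlier are given beside the lists. These shifted matchings were added after the values had been seen.

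Of the 5042 genes, 398 were higher (7.89%) and 357 lower (7.08%) in set1Δ, which is 15.0% in all at an adjusted p below 0.05. In 24.5% of the 5042 (1234 genes) the 3 libraries of each strain did not overlap. The counts called in each gene list below are to be read against these shares. Of 63 mating genes tested out of 67 listed, 38 were lower and 1 was higher, with a median log2 difference of −1.72 against 0.01 over all genes. The cell fusion genes FIG1 and FUS1 and the pheromone-regulated membrane proteins PRM2, PRM4 and PRM6 were among the lowest. PRM2 had 207, 225 and 165 CPM in WT and 7.00, 0 and 4.08 CPM in set1Δ (−5.36 ± 0.33, adjusted p = 2.72e-07). The only mating gene that rose was MF(ALPHA)2, which encodes α-factor and is normally silent in a cells. It had 0.873, 2.97 and 2.33 CPM in WT and 28.6, 9.53 and 7.00 CPM in set1Δ (2.60 ± 0.58, adjusted p = 0.00665). Without the 30 min pair its adjusted p was 0.0681, and without 15 min its reads fell below the minimum for testing. At 0 min, with 1 library per strain, the 63 mating genes had a median difference of −0.51, against −0.004 over all genes. It was −1.07 in the 20 cell fusion and agglutination genes and 0.54 in the 6 a-specific and α-specific genes.

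Beside the mating genes, 397 genes were higher and 319 lower in set1Δ, of 4979 tested. The 30 min pair decided much of this count. Without it 83 were higher and 86 lower, against 301 and 262 without 15 min and 285 and 160 without 45 min. DESeq2 called 208 higher and 135 lower, and with WT taken 15 min later or earlier the counts were 114 and 97 or 21 and 61.

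**Figure D1:**
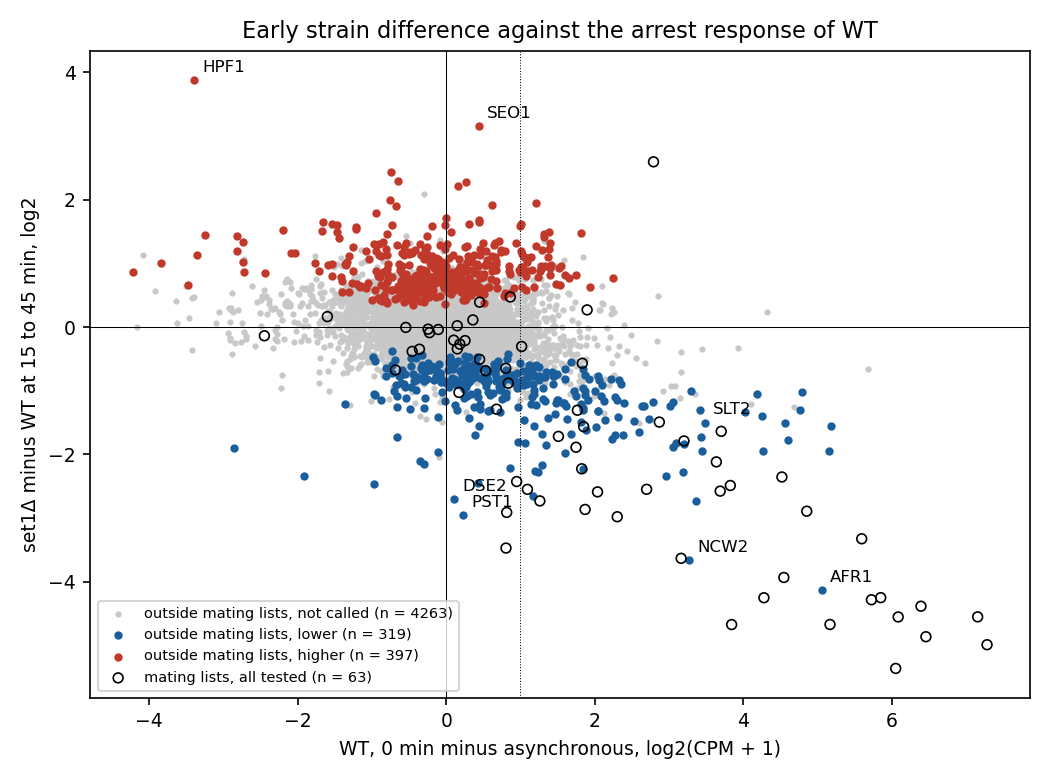
Each point is a tested gene. The horizontal axis is its change on arrest in WT, log2(CPM + 1) at 0 min minus asynchronous growth, and the vertical axis its log2 difference of set1Δ from WT at 15 to 45 min. Of the 319 lower genes outside the mating lists (blue), 127 lie to the right of the dotted line that marks a 2-fold rise on arrest.

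Many of the lower genes that remained were ones that WT had raised during the arrest. Of the 319, 127 (39.8%) were at least 2-fold higher in the arrested than in the asynchronous WT library, against 9.88% of all genes tested outside the mating lists. Their median level in WT stood 1.81 log2 units above the asynchronous library at 0 min and 1.70, 1.43 and 1.18 units above it at 15, 30 and 45 min. In set1Δ it stood 0.48 units above that WT library at 0 min and 0.47, 0.14 and −0.01 units from it at the same times. The 127 genes had been chosen for a high WT level at 0 min and a lower level in set1Δ from 15 to 45 min, so these medians describe the choice and are no result on the strains. When these arrest-raised genes were also set aside, 354 genes were higher and 192 lower, of 4487 tested. The 0 min and asynchronous values come from 1 library per strain and carry no test.

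**Figure D2:**
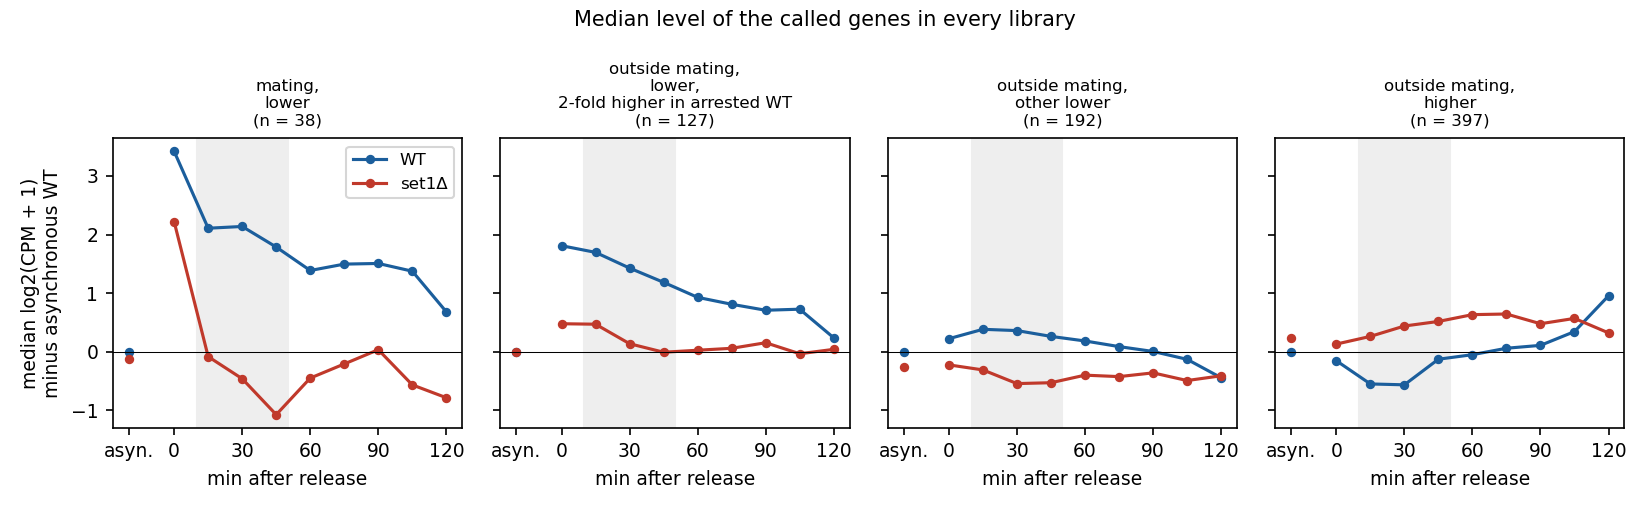
Median log2(CPM + 1) minus the asynchronous WT library over each set of called genes, in every library of WT (blue) and set1Δ (red), with the 15 to 45 min window in grey. The sets were chosen by the calls in the window, and the 127 arrest-raised genes by WT at 0 min as well, so the gap between the strains there is fixed by the choice.

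The lowest genes outside the mating lists included several with known ties to mating cells or to the filamentous growth that shares part of the pathway. AFR1 (YDR085C, chromosome IV, 614288 to 616150, minus strand, assembly R64), which regulates the α-factor receptor and shapes the mating projection, had 155, 150 and 122 CPM in WT and 9.92, 5.72 and 7.00 CPM in set1Δ. The groups were far apart, with a log2 difference of −4.14 ± 0.25 (adjusted p = 7.10e-09). DIA1 (YMR316W), named for invasive growth into agar, had 287, 304 and 233 CPM in WT and 38.5, 55.3 and 33.8 CPM in set1Δ (−2.73 ± 0.19, adjusted p = 3.31e-08). NFG1 (YLR042C), a negative regulator of filamentous growth, had 52.4, 90.4 and 48.3 CPM in WT and 14.0, 9.53 and 4.67 CPM in set1Δ (−2.66 ± 0.31, adjusted p = 2.28e-05). In each of these 3 genes every WT library lay above every set1Δ library.

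The promoters of the genes were searched for TGAAACA, the letters of the pheromone response element, on both strands, from 250 bases before to 50 bases after the coding start. The window held it in 57.9% of the lower mating genes (22 of 38), in 11.1% of the 316 lower genes outside the lists that had a window, and in 6.85% of the 394 higher ones, against 7.50% of all 5985 promoters read. Among the 14 lowest genes outside the lists it was found in DIA1 and DSE2. These are shown beside FUS1, a standard reporter of the pathway, to let the spacing of the matches be compared. Sequences are from the RefSeq genome R64, 100 bases each, 5′ to 3′ on the strand of the gene, with the matches in capitals. FUS1 has 2 matches, 187 and 160 bases before its start, and DSE2 has 2, 224 and 207 bases before its start, the nearer of them on the other strand. DIA1 has 1, 95 bases before its start.
FUS1 (III:71596-71695, plus strand): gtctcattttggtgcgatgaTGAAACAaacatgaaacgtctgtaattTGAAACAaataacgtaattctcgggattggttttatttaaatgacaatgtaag
DSE2 (VIII:385266-385365, plus strand): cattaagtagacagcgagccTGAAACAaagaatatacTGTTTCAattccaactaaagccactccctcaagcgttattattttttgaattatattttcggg
DIA1 (XIII:904665-904764, plus strand): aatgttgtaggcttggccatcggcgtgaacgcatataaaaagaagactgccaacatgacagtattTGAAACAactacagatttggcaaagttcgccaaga

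The wall protein genes NCW2 and PST1 were among the lowest, while other wall genes were lower, higher or not called. NCW2 (YLR194C), a cell wall protein, had 793, 617 and 567 CPM in WT and 91.1, 41.9 and 32.7 CPM in set1Δ (−3.66 ± 0.21, adjusted p = 1.34e-08). At 0 min WT had stood at 1522 CPM and set1Δ at 43.1 CPM, while the asynchronous libraries had 158 and 114 CPM. PST1 (YDR055W), a wall protein made on wall damage, had 279, 194 and 124 CPM in WT and 50.8, 13.3 and 14.0 CPM in set1Δ (−2.95 ± 0.23, adjusted p = 3.23e-07). In both genes WT lay above set1Δ at each time.

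A list of 26 cell wall integrity genes, drawn up after the values had been seen, held 10 lower genes and 1 higher one, with a median log2 difference of −0.46. The kinase gene SLT2 (YHR030C) had 293, 219 and 205 CPM in WT and 98.6, 111 and 54.8 CPM in set1Δ (−1.50 ± 0.19, adjusted p = 5.86e-05). GSC2 (YGR032W), a catalytic subunit of β-glucan synthase, had 530, 418 and 331 CPM in WT and 134, 118 and 81.6 CPM in set1Δ (−1.95 ± 0.16, adjusted p = 4.57e-07). RLM1, the transcription factor downstream of Slt2, had a log2 difference of −1.44 ± 0.21 and PRM5, which is also a mating gene, one of −3.93 ± 0.38. The wall protein gene SED1 was the higher member (0.61 ± 0.15, adjusted p = 0.0108). The asynchronous WT and set1Δ libraries had 54.8 and 57.0 CPM of SLT2, and the arrested ones 621 and 86.3 CPM. Without 30 min 6 members were lower, and without either of the other pairs 10 and 8. When WT was taken 15 min later or earlier, 7 were lower and 0 higher.

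Chitin and glucan synthesis genes had 5 lower and 1 higher member of 16, among them the chitin synthase CHS3 (−0.71 ± 0.17, adjusted p = 0.0101, and 0.138 without 30 min), and 1 was lower without 30 min or with WT taken 15 min later or earlier. Cell-wall mannoproteins had 3 higher and 2 lower of 16, with 1 and 2 when WT was taken 15 min later and 1 and 0 when it was taken earlier. The abundant CWP2 had 10950, 17566 and 20946 CPM in WT and 6240, 9397 and 11639 CPM in set1Δ (−0.85 ± 0.10, adjusted p = 2.28e-05). Its level climbed with time in both strains, and set1Δ was lower at each time. None of the 4 tested PIR wall proteins passed with edgeR or DESeq2, and 0 had an unadjusted p below 0.05. HSP150 had 0.44 ± 0.22 (adjusted p = 0.206).

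SET1 itself is left out of the 14 lowest genes. The rest of them had log2 differences from −2.33 to −2.21. PAL2, which acts in endocytosis, had 97.8, 98.7 and 97.3 CPM in WT and 23.9, 24.8 and 15.7 CPM in set1Δ (−2.23 ± 0.23, adjusted p = 4.79e-06). PEP12, a SNARE protein of the late endosome, had 59.4, 83.8 and 67.6 CPM in WT and 18.7, 3.81 and 15.2 CPM in set1Δ (−2.26 ± 0.33, adjusted p = 6.34e-04). SRL3 had 113, 72.5 and 61.2 CPM in WT and 36.8, 13.3 and 5.83 CPM in set1Δ (−2.28 ± 0.30, adjusted p = 2.01e-04). These 3 genes showed no overlap between the strains. YGL194C-A, YOR072W-B and YOR289W were also lower, and YOR072W-B had an adjusted p of 0.0581 without 45 min.

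**Figure D3:**
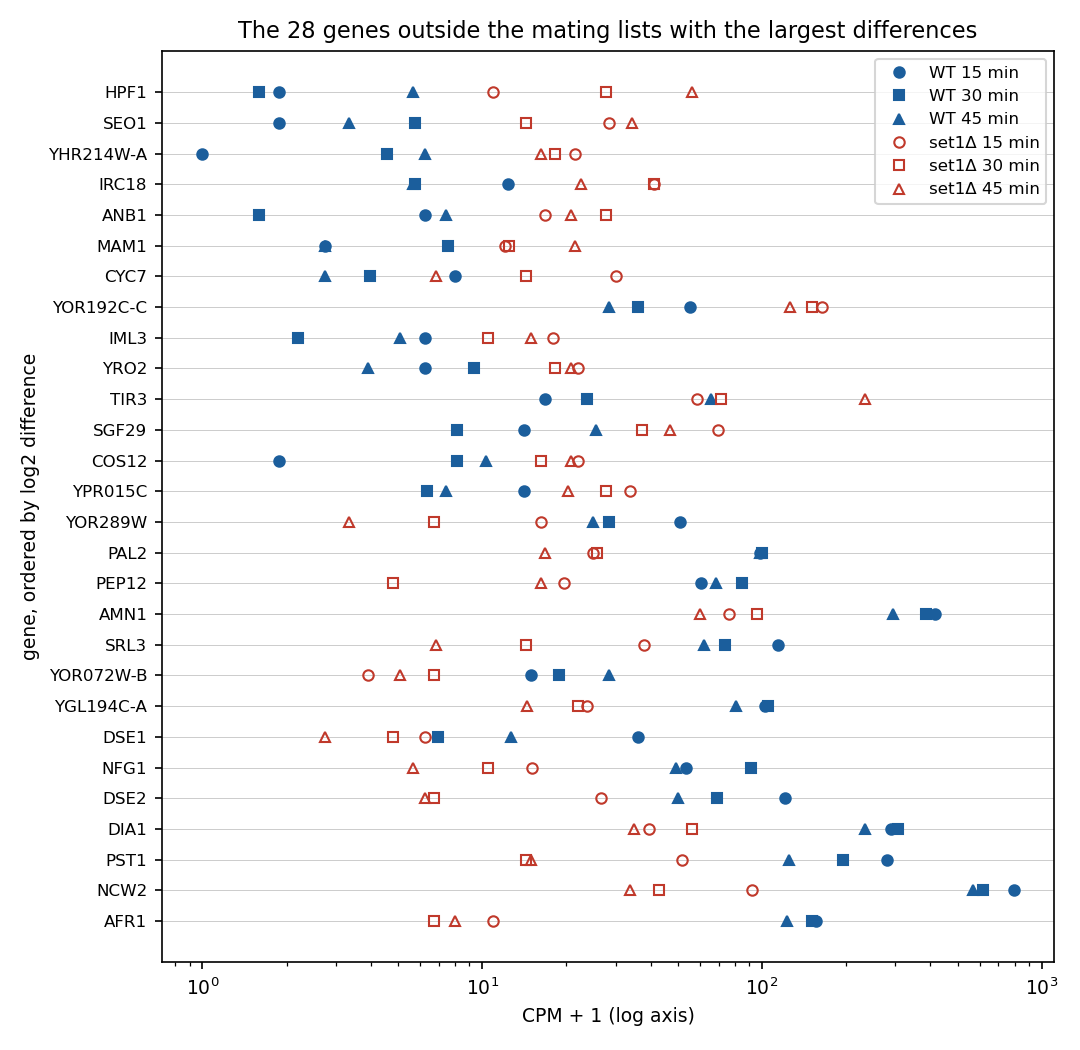
CPM + 1 on a log axis for the 28 genes outside the mating lists, SET1 left out, with the largest called differences of 1 sign at all 3 times, 14 in each direction, with a point for each of the 6 libraries. In the lower genes the filled WT points lie to the right of the open set1Δ points, and in the higher genes to the left, except that CYC7 and TIR3 overlap.

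Genes of the M/G1 transition and early G1 were lower as well. Of 24 tested members of that list, 9 were lower and 0 higher in edgeR, 6 and 0 in DESeq2 and 12 and 2 at an unadjusted p below 0.05, with a median of −0.53. DSE2 (YHR143W), a secreted protein that helps degrade the septum, had 120, 67.8 and 48.9 CPM in WT and 25.7, 5.72 and 5.25 CPM in set1Δ (−2.71 ± 0.28, adjusted p = 6.02e-06). AMN1 (YBR158W), which turns off mitotic exit in daughters, had 415, 386 and 292 CPM in WT and 75.3, 95.3 and 58.9 CPM in set1Δ (−2.27 ± 0.18, adjusted p = 1.90e-07). Both genes had no overlap between the strains.

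At 0 min, with 1 library per strain, DSE2, AMN1, SCW11 and NIS1 differed less or in the other direction. In WT and set1Δ, DSE2 then had 121 and 180 CPM, and AMN1 had 990 and 776 CPM. The glucanase SCW11 had 96.2 and 147 CPM at 0 min and was lower in set1Δ after release (−1.55 ± 0.27, adjusted p = 7.54e-04). NIS1 (−2.16 ± 0.26), a bud neck protein, was lower at 0 min too, with 143 and 70.2 CPM. DSE1 was lower (−2.44 ± 0.48, adjusted p = 0.00249), and without 15 min or in tailed reads alone it fell below the minimum for testing.

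With WT taken 15 min later 4 of the M/G1 and early G1 genes were lower, and with WT taken 15 min earlier 6. The lower members include the G1 cyclin gene CLN3 (−0.63 ± 0.18, adjusted p = 0.0244) and RME1, a repressor of meiosis (−1.73 ± 0.46, adjusted p = 0.0182). M/G1 markers summed to 178 to 394 CPM in WT and 75.2 to 225 CPM in set1Δ, while at 0 min they had summed to 348 and 393 CPM.

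**Figure D4:**
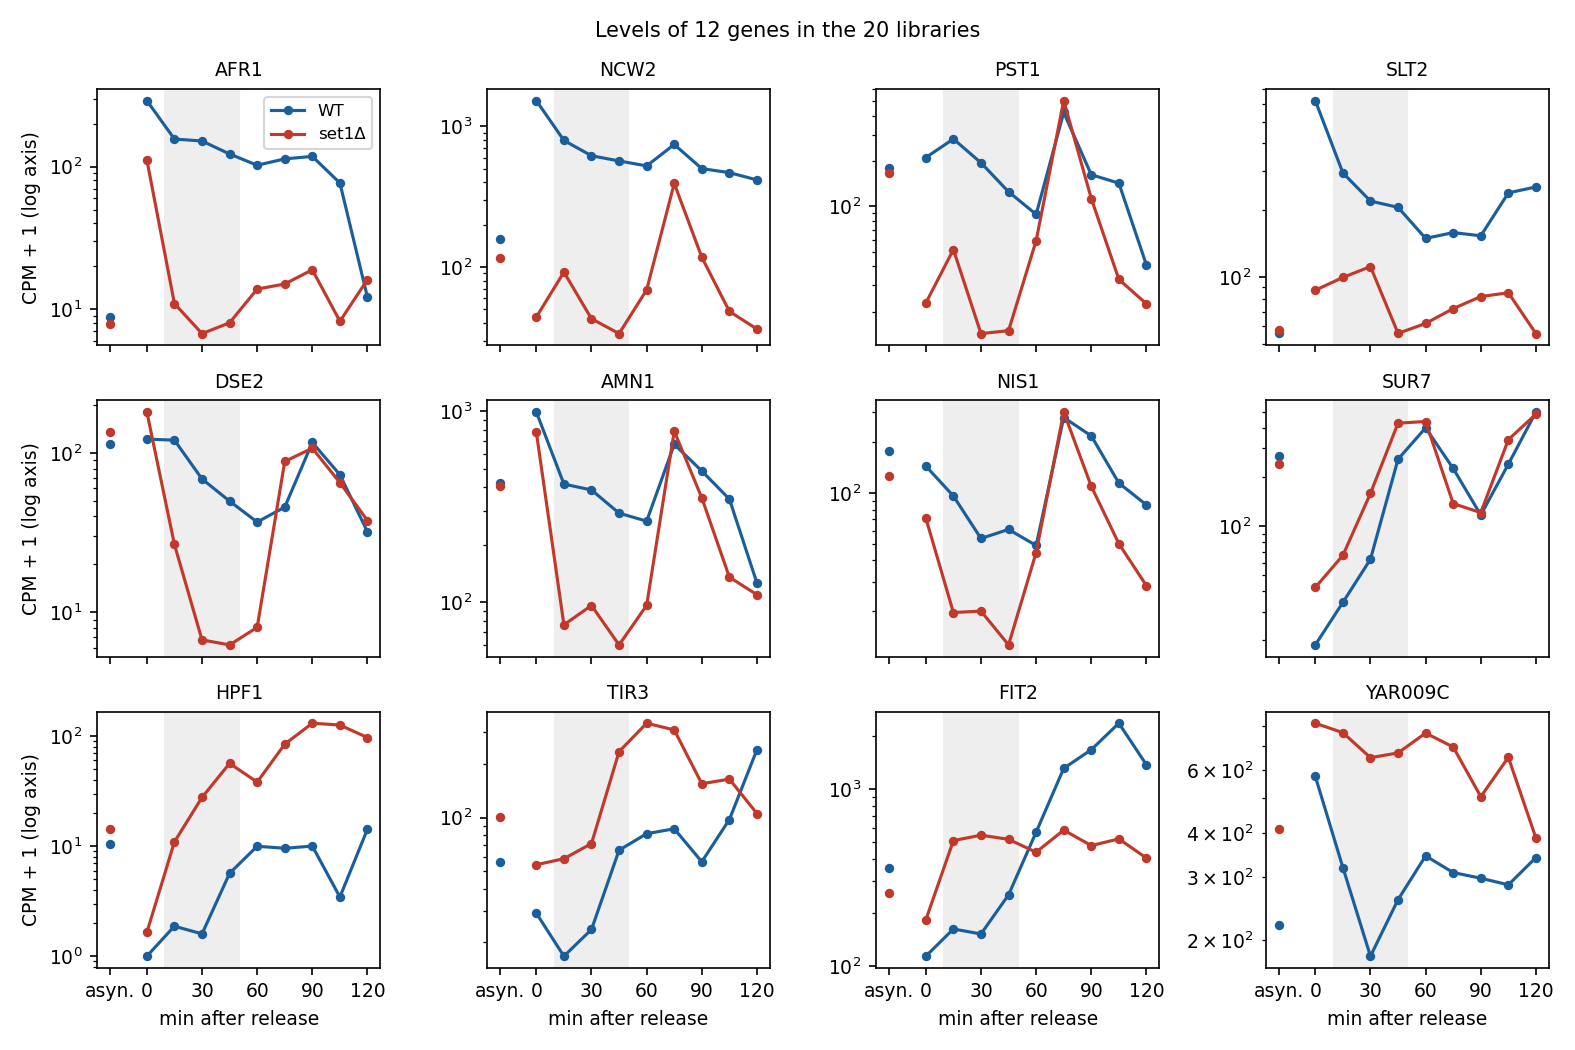
CPM + 1 on a log axis for 12 genes in the 20 libraries of WT (blue) and set1Δ (red), with asynchronous growth at the left and the 15 to 45 min window in grey. DSE2 and AMN1 are low in set1Δ in the window and near WT at 90 and 75 min respectively, whereas AFR1 stays lower in set1Δ through 105 min.

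Of 20 G2/M genes, 7 were higher and 0 lower in edgeR, with 3 and 0 in DESeq2 and 10 and 0 at an unadjusted p below 0.05. They were SUR7, CHS2, BUD4, SWI5, MYO1, CLB1 and BUD3, with log2 differences from 0.75 to 1.19. SUR7, a plasma membrane protein, had 33.2, 61.8 and 257 CPM in WT and 65.4, 158 and 428 CPM in set1Δ (1.00 ± 0.18, adjusted p = 0.00137). The levels of the 2 strains overlapped because SUR7 climbed with time in both. SWI5, a transcription factor gene of late mitosis, had 4.36, 10.7 and 57.1 CPM in WT and 5.25, 41.9 and 107 CPM in set1Δ (1.13 ± 0.30, adjusted p = 0.0180, and 0.225 without 30 min). The list's median difference was 0.09, 0.55 and 0.74 at 15, 30 and 45 min. Without 30 min none of the 20 was called, without 15 min 11 were higher, and with WT taken 15 min later none was called and with WT taken earlier 2 were higher.

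The G1/S genes changed sign within the window. Their median log2 difference was 1.35 at 15 min, −0.24 at 30 min and −0.49 at 45 min, and the fitted median was 0.27. Over the 3 times 0 of 45 were higher and 1 lower in edgeR, the exoglucanase EXG1 (−0.48 ± 0.16, adjusted p = 0.0496), while DESeq2 called 1 higher and 0 lower and 3 higher and 1 lower had an unadjusted p below 0.05. EXG1 lost its call in every leave-out, with adjusted p from 0.164 to 0.198. Without 15 min 10 G1/S genes were lower, and with WT taken 15 min later 2 were higher. Histone genes had 1 of 10 higher, HTA2 (0.66 ± 0.15, adjusted p = 0.00749, and 0.220 without 30 min), with 4 higher without 45 min and none with WT taken 15 min later or earlier. Of 4 tubulin genes, TUB1 (0.91 ± 0.16) and TUB3 (0.87 ± 0.18) were higher, and neither was without 30 min, with adjusted p of 0.0713 and 0.110, nor with WT taken 15 min later or earlier.

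The genes with the largest increases outside the mating lists were mostly of low abundance. HPF1 (YOL155C), a cell wall mannoprotein, had 0.873, 0.595 and 4.66 CPM in WT and 9.92, 26.7 and 55.4 CPM in set1Δ (3.88 ± 0.45, adjusted p = 2.07e-05). SEO1 (YAL067C), a putative permease, had 0.873, 4.76 and 2.33 CPM in WT and 27.4, 13.3 and 33.2 CPM in set1Δ (3.15 ± 0.50, adjusted p = 5.71e-04). IRC18 had 11.3, 4.76 and 4.66 CPM in WT and 40.3, 40.0 and 21.6 CPM in set1Δ (2.29 ± 0.35, adjusted p = 2.58e-04). In all 3 genes the strains did not overlap, though HPF1 fell below the minimum for testing without 45 min. At 60 to 90 min, in later libraries of the same cultures, HPF1 differed by 3.11 ± 0.27 (adjusted p = 1.11e-06) and IRC18 by 2.08 ± 0.36 (adjusted p = 8.03e-04).

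The feature YOR192C-C was among the more abundant of the highest, with 54.1, 35.1 and 27.4 CPM in WT and 163, 151 and 125 CPM in set1Δ (1.95 ± 0.20, adjusted p = 4.89e-06). It was higher in set1Δ at 0 min as well, with 170 CPM against 79.9 CPM. YHR214W-A (2.44 ± 0.57), YRO2 (1.90 ± 0.42) and YPR015C (1.65 ± 0.35) were higher at low counts. YHR214W-A and YPR015C had adjusted p of 0.170 and 0.0789 without 30 min, and YRO2 had 0.0766 without 45 min.

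Genes known from oxygen limitation recurred among the highest. Of 15 hypoxic genes 4 were higher and 1, the fatty acid desaturase OLE1 (−0.59 ± 0.17), was lower. In all 10 differences were positive and 5 negative. DESeq2 called 1 higher and 0 lower, and it gave no adjusted p for ANB1 and CYC7. TIR3 (YIL011W), a wall mannoprotein, had 15.7, 22.6 and 64.6 CPM in WT and 57.8, 70.5 and 233 CPM in set1Δ (1.80 ± 0.20, adjusted p = 1.51e-05). ANB1, the hypoxic form of the translation factor eIF5A, had 5.24, 0.595 and 6.41 CPM in WT and 15.8, 26.7 and 19.8 CPM in set1Δ (2.28 ± 0.54, adjusted p = 0.0138, and 0.0939 without 30 min). CYC7, the hypoxic form of cytochrome c, had a log2 difference of 1.99 ± 0.45 and AAC3, an ADP/ATP carrier, one of 1.58 ± 0.44. Only TIR3 kept its call when 30 min was left out, where CYC7 had an adjusted p of 0.0785 and AAC3 of 0.161. The list had 2 higher and 1 lower with WT taken 15 min later, and no call with WT taken earlier.

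SGF29 was also among the 14 highest. SGF29 (YCL010C), the subunit of the SAGA complex that binds methylated lysine 4 of histone H3, had 13.1, 7.14 and 24.5 CPM in WT and 68.9, 36.2 and 46.1 CPM in set1Δ (1.72 ± 0.32, adjusted p = 0.00199, and 0.0793 without 30 min). Of its 15, 12 and 42 reads in WT 2, 3 and 1 carried a poly(A) tail, and of its 118, 19 and 79 reads in set1Δ 5, 4 and 0 did. That is a far lower share than in the libraries as a whole, and the gene was too low to test in tailed reads alone. Of 13 silent information regulators and sirtuins, DOT1, the methyltransferase of lysine 79 of histone H3, was higher (1.07 ± 0.25, adjusted p = 0.00907, 0.129 without 30 min and 0.540 in tailed reads alone), as was HST2 (0.82 ± 0.26, adjusted p = 0.0443). HST2 lost its call in every leave-out, with adjusted p from 0.0568 to 0.278. Of the 13, 1 was higher with WT taken 15 min later and none with WT taken earlier. MAM1, a meiotic kinetochore protein (2.21 ± 0.52), and IML3, a kinetochore protein (1.92 ± 0.47), were higher at fewer than 21 CPM in each library. IML3 had adjusted p of 0.0957 without 30 min and 0.0682 without 45 min, MAM1 was too low to test without 45 min, and IML3 without 15 min and in tailed reads alone. Of the 6 tested COMPASS subunits other than SET1, none was called in edgeR or DESeq2, and 1, BRE2 (0.61 ± 0.25, adjusted p = 0.119), had an unadjusted p below 0.05.

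Genes near chromosome ends were called about as often as other genes. Within 20 kb of an end 7.22% of 97 genes were higher and 7.22% lower, against 7.93% and 7.09% of the rest. Within 10 kb the shares were 12.2% and 2.44% of 41 genes. Of 9 genes with a COS name, not all of them subtelomeric, 1 was higher, COS12 (1.68 ± 0.48). It lost its call in every leave-out, with adjusted p from 0.057 to 0.179. The 8 YRF1 helicase genes, near-identical copies whose reads may be shared, had a median of 0.61 and 1 call, YRF1-5, which had an adjusted p of 0.211 without 15 min and 0.224 without 30 min. Neither the COS nor the YRF1 genes had a call with WT taken 15 min later or earlier.

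Retrotransposon features formed the group with the most members called higher. Of 45 features annotated as retrotransposon, a list added after the values had been seen, 36 were higher and 3 lower, with a median of 0.94. Ty1, the most numerous family, had 28 of 31 higher (median 0.98) and Ty2 had 7 of 10 (median 0.83). YAR009C, a Ty1 feature, had 319, 179 and 259 CPM in WT and 764, 650 and 670 CPM in set1Δ (1.49 ± 0.16, adjusted p = 6.33e-06). The Ty3 features fell, with YGR109W-B/YGR109W-A at 731, 514 and 411 CPM in WT and 229, 145 and 116 CPM in set1Δ (−1.77 ± 0.15, adjusted p = 6.43e-07).

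Copies of Ty1 and of Ty2 are close to identical, so reads may be divided among them and single features are uncertain. The family medians do not stand for independent genes. In the asynchronous libraries the median difference was 0.83 for Ty1 and 0.74 for Ty2, so they were already higher in set1Δ before arrest. The 2 Ty3 features went opposite ways in growing cells, with YIL082W-A at 0.76 and YGR109W-B/YGR109W-A at −0.12, and at 60 to 90 min they had −1.87 and −1.96. From the asynchronous to the arrested WT library they rose by 5.15 and 4.61 log2 units, against a median of 1.24 over the 45 features. At 0 min they differed by −1.61 and −0.88 in set1Δ. The other lower feature, YDR170W-A, rose by 3.30 in WT and differed by −0.53 at 0 min. Without 30 min 27 retrotransposon features were higher and 3 lower. With WT taken 15 min later they were 34 and 2, and with WT taken 15 min earlier 0 and 2. In WT the level of YAR009C at 0 min was 575 CPM.

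Among the amino acid synthesis lists, the histidine, leucine and branched-chain genes were called higher most often. Of 17 histidine, leucine and branched-chain genes 9 were higher and 0 lower in edgeR (median 0.50), 4 and 0 in DESeq2 and 12 and 0 at an unadjusted p below 0.05. ILV1, threonine deaminase, had 721, 1145 and 1358 CPM in WT and 1291, 1978 and 2118 CPM in set1Δ (0.76 ± 0.12, adjusted p = 4.16e-04). Without 30 min 1 member was higher, with WT taken 15 min later 2 and with WT taken earlier none. ARG1 (1.48 ± 0.28, adjusted p = 0.00149), LYS2 (1.13 ± 0.19, adjusted p = 5.54e-04) and CYS3 (1.31 ± 0.15, adjusted p = 3.30e-05, but 0.25 and 0.374 in tailed reads alone) were higher in the arginine, lysine and sulfur amino acid lists. The arginine list had 7 positive and 6 negative differences, and its member ORT1 was lower (−1.24 ± 0.25, adjusted p = 0.00326). The arginine, lysine and sulfur lists had 1 higher and 1 lower of 13, 1 higher of 9 and 2 higher of 20. Over all genes 7.89% were higher and 7.08% lower. The sulfur list, methionine and sulfate assimilation, had 7 higher without 15 min and none with WT taken 15 min later or earlier. Its median difference was −0.34 at 15 min, −0.04 at 30 min and 1.01 at 45 min. With the WT shift to later times the arginine list had 1 higher and 0 lower and the lysine list 1 higher, and with the shift to earlier times 0 higher and 1 lower, and 0. HIS3/DED1 is a feature of several genes and is uncertain.

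Glycolysis genes were divided. Of 20 genes 8 were higher and 2 lower. The enolase ENO2 had 2897, 1859 and 2836 CPM in WT and 5009, 3843 and 6377 CPM in set1Δ (1.00 ± 0.12, adjusted p = 2.07e-05). The other enolase, ENO1, had 2018, 1547 and 1266 CPM in WT and 886, 781 and 881 CPM in set1Δ (−0.90 ± 0.14, adjusted p = 3.93e-04, and 0.0527 without 30 min). The paralogs may share reads. TDH1, a glyceraldehyde phosphate dehydrogenase, was lower too (−0.76 ± 0.13, adjusted p = 9.59e-04). Without 30 min 2 glycolysis genes were higher and 1 lower, and with poly(A) reads alone 4 and 6. With WT taken 15 min later 1 was higher and 0 lower, and with WT taken earlier none was called.

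Cytosolic ribosome genes were called higher more often than lower at equal times, but not with WT taken 15 min later or earlier. Of 51 ribosome biogenesis genes 10 were higher and 0 lower in edgeR (median 0.25), 4 and 0 in DESeq2 and 19 and 0 at an unadjusted p below 0.05. None was called without 30 min or with WT shifted either way. Small subunit proteins had 11 higher and 2 lower of 55, and large subunit proteins 14 and 3 of 82, with medians of 0.16 and 0.07. The large subunit list also holds RPP1 (YHR062C), which is not a ribosomal protein and was not called. Without 30 min the small subunit had 0 higher and 1 lower and the large subunit 2 higher and 0 lower. With WT taken 15 min later the small subunit had 0 higher and 2 lower, and neither subunit had another call under either shift. RPL2B (0.99 ± 0.13, adjusted p = 4.46e-05) kept its call in each leave-out but had 0.28 in tailed reads alone (adjusted p = 0.184). In the libraries of 60 to 90 min, in which 9.31% of 5103 genes were higher and 9.05% lower, the small subunit had 0 higher and 12 lower and the large 3 and 18. Of 56 mitochondrial ribosomal proteins 3 were lower, with 0 without 30 min, 2 with WT taken 15 min later and 0 with WT taken earlier.

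Stress genes and lipid genes were mixed. Of 32 stress-induced genes 7 were lower and 1 higher, with a median of −0.40, and at 0 min their median difference had been −1.62. HSP42 had 232, 118 and 119 CPM in WT and 97.5, 59.1 and 51.3 CPM in set1Δ (−1.17 ± 0.18, adjusted p = 2.86e-04). Without 30 min 2 were lower, and with WT taken 15 min later 0 were lower and 3 higher, with none called when WT was taken earlier. Ergosterol synthesis had 7 lower and 4 higher of 24. ERG24, a sterol reductase, had 256, 196 and 184 CPM in WT and 91.1, 89.5 and 93.3 CPM in set1Δ (−1.20 ± 0.18, adjusted p = 2.09e-04). Without 30 min or with WT taken 15 min later 2 sterol genes were lower and 0 higher, and with WT taken earlier 1 was lower.

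Iron genes were divided as well. Of 14 iron uptake genes 2 were higher and 3 lower. DESeq2 called 2 higher and 0 lower, and 0 were lower without 30 min or without 45 min. The list had 0 higher and 1 lower with WT taken 15 min later, and 1 and 0 with WT taken earlier. FIT2 (YOR382W), a wall mannoprotein that retains iron carriers, had 161, 150 and 251 CPM in WT and 510, 547 and 518 CPM in set1Δ (1.52 ± 0.18, adjusted p = 2.07e-05). From 60 to 90 min FIT2 was lower in set1Δ (−1.11 ± 0.26, adjusted p = 0.0305). FIT3 had 0.85 ± 0.19 early (adjusted p = 0.00666, and 0.0787 without 15 min and 0.132 without 30 min) and −0.92 ± 0.17 from 60 to 90 min (adjusted p = 0.00161). Respiratory chain genes had 5 lower and 1 higher of 30 and none without 30 min, with 1 lower when WT was taken 15 min later and 1 higher when it was taken earlier. Hexose transport genes had 2 lower and 1 higher of 16, where 7.08% of all genes were lower and 7.89% higher. None was called in DESeq2, without 30 min or with WT taken 15 min earlier, and 1 was lower with WT taken later.

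The genes called outside the mating lists were then read in libraries that the comparison had not used. Those libraries came from the same 1 culture of each strain, so equal signs there are no repeat in new cultures. At 60 to 90 min, 307 of 318 lower genes had a negative difference and 189 of them were called lower, with 1 called higher. Over all 4928 genes outside the mating lists that were tested in both windows, 2508 had a negative difference then, 427 were called lower and 468 higher. Of 393 higher genes 369 had a positive difference and 234 were called higher, with 2 called lower. In the asynchronous pair 214 of the 319 lower genes (67.1%) were lower in set1Δ, against 50.2% of all tested outside the mating lists, and 298 of the 397 higher genes were higher, against 2478 of all 4979. The median asynchronous difference was −0.15 and 0.23, against early medians of −0.89 and 0.83. A direct test of the strain effect at 15 to 45 min against 60 to 90 min called 8 of 5089 genes (0.157%). It called 7 as more negative early, among them PST1 and NIS1, and 1 as more positive, FIT3.

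**Figure D5:**
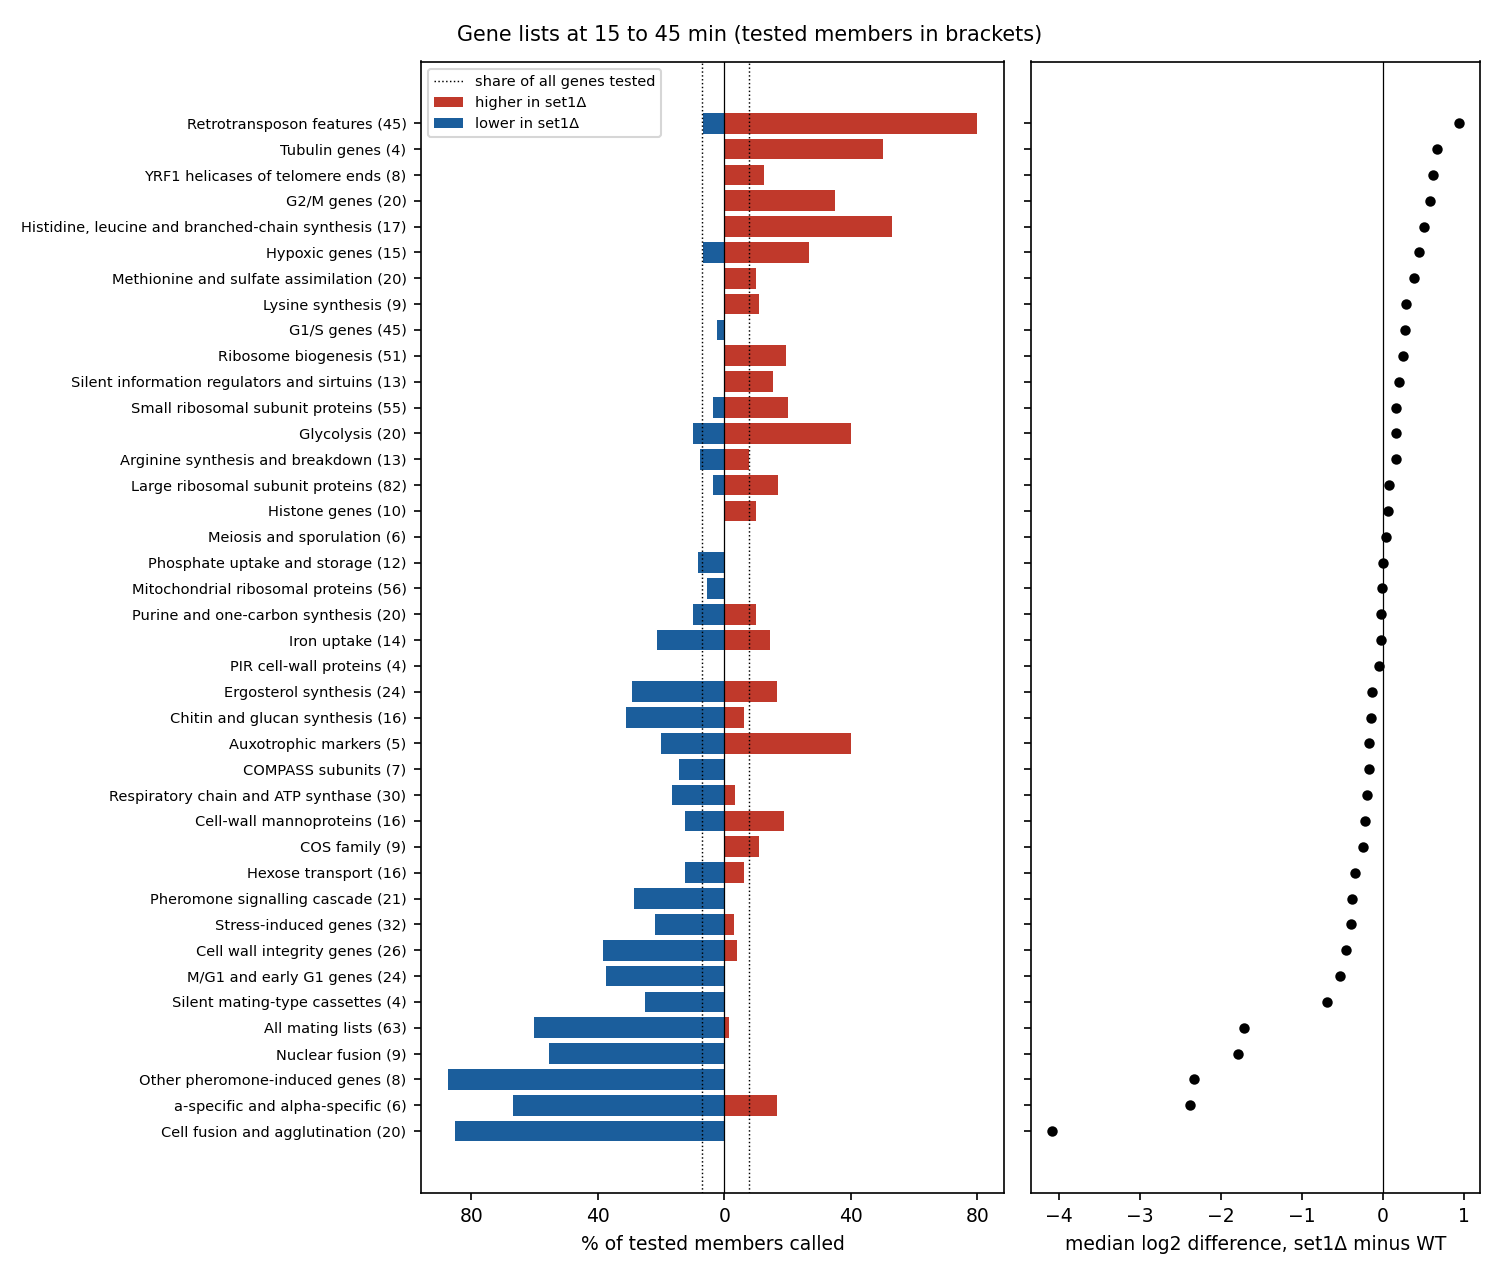
The left panel gives the share of tested members of each gene list called higher (red) or lower (blue) in set1Δ at 15 to 45 min, with dotted lines at 7.89% and 7.08% for all genes tested. The right panel gives each list's median log2 difference, which runs from −4.09 for cell fusion genes to 0.94 for retrotransposon features.

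Tail lengths were the other readout of the same libraries. The median mean tail length over 3600 genes was 28.8, 29.6 and 29.1 nucleotides in WT and 28.5, 26.8 and 29.7 nucleotides in set1Δ. The median was lower in set1Δ at 15 and 30 min and higher at 45 min, and the shallow set1Δ library of 30 min had the lowest value. No gene passed with limma at an adjusted p below 0.05 (0% of 3600), and 60 were longer and 192 shorter at an unadjusted p below 0.05. The median difference was −0.96 nucleotides and −0.06 without 30 min. The lower share of tailed reads in set1Δ moved with the strain, and its part in these lengths was not tested.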

How the data were processed

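Groups and times came from the labels, and columns were matched by name. The authors deposited raw read counts per feature, counts of poly(A)-tailed reads, and the mean length of those tails in nucleotides. Bowtie, Bowtie2 2.2.5 and the build sacCer3 are named in the submitters' processing notes. The counting tool, annotation and strand setting are not given in the sources used here. Of 6532 features, 5861 matched 1 gene of assembly R64, 70 several and 601 none.

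The strain test was the quasi-likelihood F-test of edgeR 4.0.16 (R 4.3.3, TMM scaling, robust), with time as a factor, on 5042 genes with a mean of at least 10 reads, and p-values were adjusted by Benjamini-Hochberg over all of them. Each SE of a strain difference is the size of that log2 difference divided by the square root of its F statistic. CPM uses TMM library sizes of all 20 libraries. Just above the minimum lay CYB2, YMR046W-A and MRX6, with a mean of 10.0 reads for the lowest kept, and just below it SHU1, YDR124W and RTC4, with 9.83 for the highest left out. Same-time libraries deviated together (correlations 0.507, 0.255 and 0.502), and time is the pair by design. Tails were tested with limma 3.58.1 on at least 10 poly(A) reads. DESeq2 1.42.0, limma-voom and other settings were alternatives. The strain test and the tail test were tested on simulated data. The simulated counts held no difference in cycle timing between the strains, so they do not show how the strain test behaves under one. The simulated tail shift was larger than the median difference seen here.

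P-values and SEs rest on count noise and on the spread of the strain difference over the time points. That spread is moderated over all genes, and neither value measures the spread between cultures. The members and lists were chosen with earlier results of these data known. Outside the mating lists, SET1 apart, the 14 highest and 14 lowest called genes with 1 sign at all times were selected and are named. The rule also selected the 6 largest mating genes and up to 4 called members per list with the smallest p. Where none was called it took up to 2 with the smallest p. Not all of these mating genes and list members are named in the text. Other members were named after their values were seen.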

Additional observations from a re-analysis of the deposited data

Results flagged for a closer look

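In 8 genes the strain effect at 15 to 45 min differed from that at 60 to 90 min by a test of the difference itself (edgeR quasi-likelihood, 12 libraries, adjusted p below 0.05, 0.157% of 5089 genes). In PST1 the early effect was lower by −2.69 ± 0.33 (SE, log2; adjusted p = 0.00475). WT and set1Δ had 419 and 502 CPM at 75 min. NIS1 differed by −1.83 ± 0.34 (adjusted p = 0.0432), with 279 and 301 CPM at 75 min. The glycogen phosphorylase GPH1 differed by −1.64 ± 0.29 (adjusted p = 0.0306), from an early −0.998 to 0.657 at 60 to 90 min. Among mating genes FUS1 differed by −2.06 ± 0.38, TEC1 by −1.70 ± 0.30, FUS3 by −1.19 ± 0.22 and STE2 by −1.54 ± 0.23. These mating genes were lower in set1Δ in both windows. FIT3 was the only one with a more positive early effect (1.77 ± 0.28, adjusted p = 0.0179), with 68.1, 66.0 and 97.8 CPM early in WT and 235, 394 and 351 CPM at 60 to 90 min. The causes were not tested.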

How the results depend on the processing

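All genes higher and lower numbered 398 and 357, and 397 and 319 outside the mating lists. Leaving out 1 time pair gave 83 to 301 and 118 to 300 over all genes, and 83 to 301 and 86 to 262 outside the lists, lowest without 30 min. DESeq2 gave 208 and 171 (208 and 135 outside), the fit of all 20 libraries 258 higher (257 outside), and the fit with no replicate block, which drops the pairing by time, 47 and 94 (47 and 64). WT taken 15 min later gave 115 and 132 (114 and 97) and 15 min earlier 21 and 95 (21 and 61), both added after the values were seen. Setting aside arrest-raised genes left 192 lower. Lower mating genes stayed between 30 and 40 in every setting, and leaving out pairs gave 32 to 38 of them. Mating genes higher were 1, with 0 in DESeq2, without the replicate block, and with WT 15 min earlier, and 0 to 1 over leave-outs. Scaling by RLE, no filter, limma-voom and poly(A) reads alone kept the counts over all genes and outside the lists within 1.5 times. The genes called were not all the same. Poly(A) reads alone shared 215 of the 398 higher and 260 of the 357 lower calls, and the others at least 393 and 340.

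Genes with tails called shorter were 0, with 2 at 20 reads, 29 at 50 reads and 0 to 16 over leave-outs, and those longer 0 to 3. Within 10 kb of an end 2.44% were lower. With WT 15 min later SUR7 had −0.16, SWI5 −0.19, HSP12 0.0275 and GPH1 0.0927. With poly(A) reads alone PDC1 had −0.0055 and HSP150 −0.0186, and with WT 15 min earlier HSP150 had −0.14. The cause was not tested. No other gene selected by the rule changed sign in any setting. The 476565 reads of set1Δ at 30 min limit genes of low count, and libraries had no repeat.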

Other observations

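Silent mating-type cassettes, phosphate and purine genes gave few calls. The cassette list had 4 tested features, HMRA1, HMRA2, MATALPHA1/YCR041W and BUD5/MATALPHA2. MATALPHA1 and MATALPHA2 are annotated at the mating-type locus, which is no silent cassette. Of the 4 only HMRA1 was lower. It had 113, 120 and 103 CPM in WT and 63.0, 41.9 and 48.4 CPM in set1Δ (−1.10 ± 0.20, adjusted p = 9.69e-04, and 0.0509 without 30 min). Cassette copies resemble the mating-type locus, so reads may be shared. That locus is annotated in its α form (MATALPHA1), so reads from its a form may be counted at HMRA1. Of 12 phosphate genes 1 was lower, PHO81 (−1.20 ± 0.39, adjusted p = 0.0472), which lost its call in each leave-out, with adjusted p from 0.0978 to 0.343. Of 20 purine and one-carbon genes 2 were higher and 2 lower. ADE6 had 0.77 ± 0.16 (adjusted p = 0.00405, 0.140 without 30 min and 0.164 in tailed reads alone) and ADE2 −0.84 ± 0.23 (adjusted p = 0.0207, and 0.101 to 0.119 over the leave-outs). Of 5 auxotrophic markers 2 were higher and 1 lower. With WT taken 15 min later the counts higher and lower were 0 and 1 for cassettes, 0 and 0 for phosphate, 1 and 0 for purine genes and 2 and 0 for markers, and with WT taken earlier none of these lists had a call. Of 6 meiosis genes and 3 PAU genes, 0 passed in edgeR or DESeq2, and 1 of each list had an unadjusted p below 0.05. PAU24 had 1.38 ± 0.47 (adjusted p = 0.0576) and SGA1 1.06 ± 0.39 (adjusted p = 0.0761).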
